A study of Rattus norvegicus with 34 samples.

Results

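The genes described here are 10 rat genes of the contractile and actin crosslinking machinery: Acta1, Acta2, Myl9, Tagln, Cnn1, Tpm1, Tpm2, Flna, Actn1 and Ankrd1. They were taken by symbol from the array annotation and are 10 of the 14217 genes named on the array. Together they are read by 19 probe sets that carry 1 gene symbol each. Tpm1 has 7 of these, Tpm2, Actn1 and Ankrd1 have 2 each, and the others have 1. The genes were chosen by their log2 differences between monuron and DMSO in the cultured cells, which had been seen in an earlier look at these data. Those differences are therefore given as a description with no test, and tests are kept for kidney, for liver and for other genes of the actin system.

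RNA from 34 samples was measured, with 1 array per sample. Of these, 18 came from NRK-52E cells, a line grown from rat kidney and labelled as epithelial cells of the proximal tubule, of Osborne-Mendel origin. Cells were exposed after confluence to monuron for 6 h, 24 h or 72 h, or to DMSO alone at 0.1% for the same times, with 3 arrays per group. The sample labels name the compound monuron, a urea herbicide, while the protocol text names chlorothalonil at 1.1 µM for the cells. The labels' name is kept here, and the compound and its dose in the cells are uncertain to that extent. The other 16 arrays came from kidney and liver of male Wistar-derived rats of 7 to 9 weeks and 190 to 240 g. Monuron was given in corn oil (5 ml/kg) at 40 mg/kg on day 1 and at 400 mg/kg on days 2 and 3. Control rats had corn oil only. There were 4 arrays per organ and group, and tissues were taken 72 h after dosing ended. Whether the kidney and the liver with the same number came from the same rat is not stated. The cell replicates are labelled as biological, with no word on separate cultures beyond the mention of 3 studies per time, so the spread between them may be partly technical.

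Actin filaments give a cell its shape and pull on its surroundings when myosin slides along them. Acta1 and Acta2 encode the actins typical of skeletal and smooth muscle, Myl9 encodes a regulatory light chain of myosin, and Tagln and Cnn1 encode actin-binding proteins of smooth muscle. Tpm1 and Tpm2 encode tropomyosins, which lie along the filament, while Flna and Actn1 encode filamin A and alpha-actinin, which crosslink filaments. Ankrd1 encodes an ankyrin repeat protein of muscle that is also a widely used target gene of YAP and TAZ. Many of these genes are read by the serum response factor SRF at a promoter element called the CArG box, together with coactivators that are held back by free actin monomers. In kidney tubule cells, Acta2 and Tagln are widely used as signs of a myofibroblast-like state.

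Expression is given on the log2 scale, 1 value per probe set and array. Levels of different genes are not set against each other, because probe sets differ in their binding. A probe set near or below its array's median, which was 3.96 to 4.18 in the cells, 3.89 to 3.94 in kidney and 3.66 to 3.78 in liver, carries little signal above the background. Replicate arrays correlated with r of 0.987 to 0.999 across probe sets. Of 10 proximal tubule markers, 0 lay above the array median on all 18 cell arrays and 8 lay above it on none. Of 8 epithelial markers, Krt8, Ocln and Tjp1 lay above it on all 18, while Cdh1 and Epcam did so on none. Of 10 fibroblast markers, 6 lay above it on all 18, among them Vim and Col3a1. Of 10 markers of smooth muscle and pericytes, only Smtn did so, and Myh11, the smooth muscle myosin heavy chain, lay above it on none. The cells thus carried few of the markers that their label names. All 10 proximal tubule markers lay above the median on every kidney array and all 7 hepatocyte markers on every liver array. DMSO replicate 3 at 72 h stood apart from the other two over the whole array. Among all 9042 genes it was the DMSO array nearest to the monuron mean for 58.1%, against 20.8% for replicate 1 and 21.0% for replicate 2.

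The promoters of both muscle actins are shown because these genes lay higher with monuron at 72 h and because both hold matches to the CArG box. Flna is shown as a gene that lay higher with monuron at 6 h and lower at 24 h. Actn1 also lay higher at 72 h, and its window, not shown, holds no match to the CArG box. The windows run from 250 bases before to 50 bases after the start taken for the gene on RefSeq assembly GRCr8. For Acta1 and Acta2 this is the outer end of the gene's annotated span. The span of Flna reaches to 157185559, so its window lies inside the gene and may miss its outermost promoter. All windows are read 5′ to 3′ on the gene's strand and show matches to the CArG box in capitals. Matches with at most 1 letter other than A or T in the core are included. All 3 lie on the minus strand, at chr19:68784145-68784444 for Acta1, chr1:241172454-241172753 for Acta2 and chrX:157182294-157182593 for Flna.
Acta1: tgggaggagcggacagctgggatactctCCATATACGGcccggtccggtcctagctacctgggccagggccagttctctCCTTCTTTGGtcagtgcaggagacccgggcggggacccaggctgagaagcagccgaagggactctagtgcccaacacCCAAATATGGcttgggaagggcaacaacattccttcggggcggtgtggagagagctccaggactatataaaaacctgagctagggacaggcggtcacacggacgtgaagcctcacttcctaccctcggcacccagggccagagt
Acta2: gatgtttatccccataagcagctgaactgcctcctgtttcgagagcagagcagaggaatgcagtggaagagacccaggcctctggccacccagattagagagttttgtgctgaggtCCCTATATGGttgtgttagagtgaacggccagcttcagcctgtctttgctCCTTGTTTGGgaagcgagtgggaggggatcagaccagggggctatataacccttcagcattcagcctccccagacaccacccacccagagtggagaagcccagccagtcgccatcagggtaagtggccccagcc
Flna: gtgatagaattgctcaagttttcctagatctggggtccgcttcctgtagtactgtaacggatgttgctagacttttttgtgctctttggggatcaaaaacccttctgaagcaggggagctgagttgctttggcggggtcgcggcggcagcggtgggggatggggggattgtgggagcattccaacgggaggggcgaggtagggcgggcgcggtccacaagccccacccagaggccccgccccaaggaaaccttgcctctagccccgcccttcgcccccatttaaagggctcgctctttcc

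The RefSeq table held promoters for 7 of the 10 genes, Acta1, Acta2, Cnn1, Tpm1, Tpm2, Flna and Actn1. Those of Tpm1, Tpm2, Flna and Actn1 were set at a start inside the gene's annotated span, and not at its outer end. The strict CArG box, whose core letters are all A or T, was in 1 of the 7 (CCAAATATGG, starting 94 bases before the Acta1 start) and in 1.64% of all 33465 promoters of that length. With at most 1 other core letter it was in 2 of the 7 and in 9.42% of all promoters. Acta1 then had 2 further matches, CCATATACGG and CCTTCTTTGG, and Acta2 had CCCTATATGG and CCTTGTTTGG. The element reads the same class of letters on both strands. The MCAT motif, CATTCC on either strand, to which TEAD factors bind, was in 4 of the 7 (Acta1, Acta2, Tpm1 and Flna) and in 14.2% of all promoters. It overlapped no CArG match in these windows. A match describes the letters of the window and says nothing on binding in these cells.

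At 72 h, 5 of the 9 genes that passed the filter on dim probe sets lay higher on all 3 monuron arrays than on any DMSO array: Acta1, Acta2, Myl9, Tagln and Actn1. No gene lay lower on all arrays. Over all 9042 genes measured in the cells, 28.6% lay higher without overlap and 29.4% lay lower. Since these contrasts were in view when the genes were chosen, nothing is read from the count. The median log2 difference of the 9 genes was 0.97, against 0.01 over all genes. In the cells the filter kept probe sets above the array median on at least 3 of the 18 arrays, and Cnn1 did not pass it. In bulk RNA, fewer cells that express a gene and less of its RNA per cell cannot be told apart.

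The muscle actins differed by a wide margin at 72 h. Acta1 read 8.58, 8.77 and 9.46 with monuron, against 2.85, 5.44 and 7.06 with DMSO (log2 values of replicates 1, 2 and 3). The monuron arrays lay closer together than the DMSO arrays, which were spread widely, from below the array median upward. The difference of 3.82 thus rests on a mean of 8.94 ± 0.46 against 5.11 ± 2.12 (SD, n = 3 each). Acta2 read 12.33, 12.46 and 12.67 with monuron, against 9.84, 11.11 and 11.62 with DMSO. Its groups did not overlap, and its difference was 1.63, a 3.10-fold ratio. In both genes DMSO replicate 1 was the lowest array and DMSO replicate 3 lay nearest to monuron. Without DMSO replicate 1 the difference was 2.69 for Acta1 and 1.12 for Acta2. Acta2 has 5 further probe sets that the annotation also gives to the cardiac actin Actc1, and these were not used. Actin genes are much alike in sequence, and whether a probe set reads more than 1 of them was not tested.

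Myl9, whose product switches myosin on when it is phosphorylated, had all 3 DMSO arrays below the array median at 72 h. It read 6.52, 6.61 and 6.97 with monuron at 72 h, against 2.51, 2.44 and 2.38 with DMSO. The log2 difference of 4.26 therefore depends on how the background is treated. With values below the median set to the median, it was 2.57, against 3.38 for Acta1 in that setting. Unlike the actins, Myl9 had DMSO arrays that lay close together (SD 0.07). Cnn1, which encodes calponin 1, read 3.86, 3.77 and 4.49 with monuron, against 2.48, 2.53 and 2.57 with DMSO. Of these 6 arrays, 1 monuron array lay above its median, so no difference is drawn for Cnn1.

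Tagln encodes transgelin, an early marker of smooth muscle. It read 14.54, 14.56 and 14.47 with monuron at 72 h, against 12.16, 14.15 and 14.34 with DMSO. The difference of 0.97 rested mainly on DMSO replicate 1, and without that array it was 0.27, still without overlap. Actn1 read 12.88, 12.85 and 12.78 with monuron, against 11.17, 11.93 and 12.59 with DMSO. The groups did not overlap, and the difference was 0.94 with all arrays and 0.58 without DMSO replicate 1. The second Actn1 probe set was also higher with monuron on all arrays, by 1.35.

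Ankrd1 read 6.60, 6.80 and 6.76 with monuron at 72 h, against 2.97, 3.40 and 6.83 with DMSO. DMSO replicate 3 was thus as high as the monuron arrays while the other two DMSO arrays were below the array median. The difference was 2.32 with all arrays and 3.53 without DMSO replicate 3. Its second probe set gave the same picture, with 6.47, 6.62 and 6.41 with monuron, against 3.01, 4.03 and 6.73 with DMSO. For the probe sets that stand for the tropomyosins and filamin, the groups overlapped at 72 h. The differences were 0.12 for Tpm1, 0.23 for Tpm2 and -0.06 for Flna. Tpm2 read 13.50, 13.56 and 13.43 with monuron, against 12.96, 13.33 and 13.51 with DMSO, so 1 DMSO array lay within the monuron values.

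Among the 9 genes, DMSO replicate 3 at 72 h was the DMSO array nearest to the monuron mean for 6. Within same-numbered pairs 1, 2 and 3 the differences were 5.73, 3.34 and 2.41 for Acta1 and 2.49, 1.36 and 1.05 for Acta2. They were 4.00, 4.17 and 4.59 for Myl9, 2.38, 0.41 and 0.12 for Tagln, and 1.71, 0.92 and 0.19 for Actn1. For Ankrd1 they were 3.63, 3.40 and -0.07, and Tpm1, Tpm2 and Flna also had both signs. Without both arrays numbered 3 at 72 h, 7 of the 9 genes lay higher without overlap, as did 40.5% of all genes with 2 arrays per group, and the median difference was 1.39. Without DMSO replicate 1 it was 0.58, against 0.97 with all arrays. The log2 difference between the 3′ and the 5′ probe sets of Gapdh, a sign of RNA integrity, was -0.43 to -0.22 on the monuron arrays and -0.37 to -0.19 on the DMSO arrays. The mean level of the 10 fibroblast markers was 6.85 to 7.07 with monuron, against 7.43 to 7.69 with DMSO. Of the 6 that passed the filter, 4 were lower and 0 higher with monuron by limma's test. The 10 markers of smooth muscle and pericytes averaged 3.31 to 3.39 with monuron, against 3.15 to 3.40 with DMSO, which is below the array medians, and 7 of the 10 were above the median on no cell array, Myh11 among them. Of the 2 that passed the filter, Des was higher with monuron by 0.91 (SE 0.24, limma adjusted p = 0.0033). It lay above the array median on 7 of the 18 cell arrays, so values near the background enter its fit. The second, Smtn, was not called, and the 2 had a median difference of 0.40. The 5 cardiac muscle markers averaged 3.11 to 3.31 with monuron, against 2.63 to 3.01 with DMSO, and 4 of the 5 were above the median on no cell array. The other, Tnni3, was higher with monuron by 1.67 (limma adjusted p = 4.61e-04). It lay above the median on only 5 of the 18 cell arrays, so values near the background enter its fit too. The 9 skeletal muscle markers averaged 3.40 to 3.49 with monuron, against 3.44 to 3.56 with DMSO. Of the 2 that passed the filter, 0 were higher and 1 was lower by limma's test. The 7 endothelial markers averaged 2.72 to 2.79 with monuron, against 2.90 to 3.17 with DMSO, and of 2 tested 0 were higher and 1 was lower. The part of these markers in the differences was not tested.

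**Figure D1:**
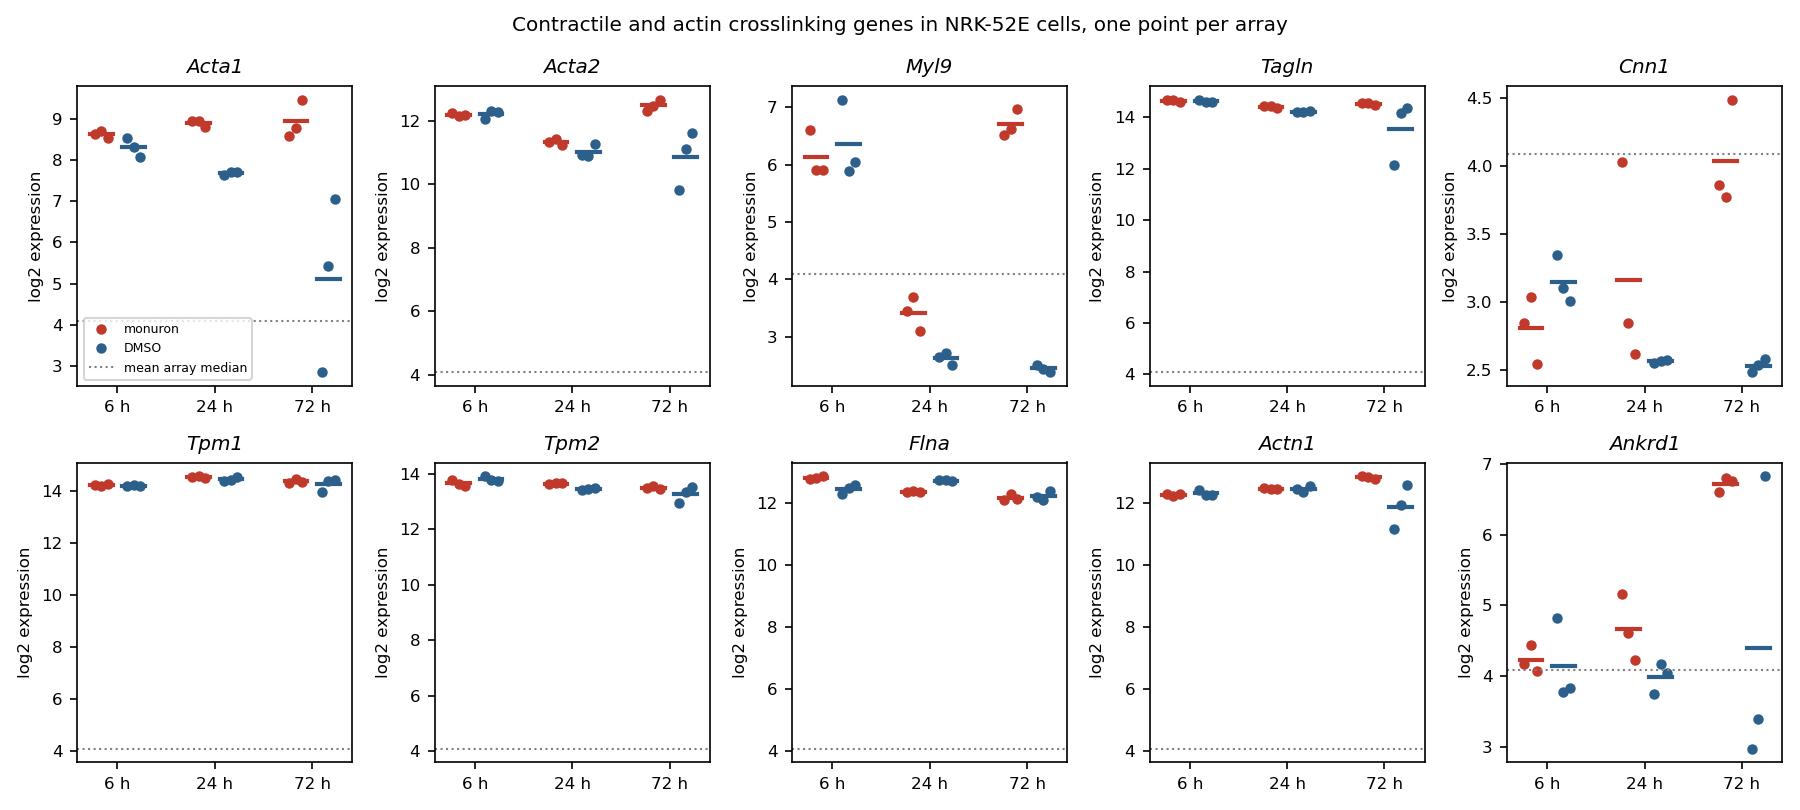
Log2 expression of the 10 genes in NRK-52E cells at 6 h, 24 h and 72 h, with 1 point per array, monuron left of DMSO, and bars at the group means (n = 3). Vertical scales differ between genes, and the dotted line is the mean array median. At 72 h the monuron arrays of Acta1, Acta2, Tagln, Actn1 and Ankrd1 lie closer together than their DMSO arrays. Acta1 with DMSO reaches from 2.85 to 7.06.

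At 24 h, by the probe set that stands for each gene, 5 of the 9 genes lay higher on all monuron arrays. These were Acta1, Myl9, Tagln, Tpm2 and Ankrd1, and 1 gene, Flna, lay lower. Over all genes 24.4% lay higher and 25% lower without overlap, and again nothing is read from the count. Acta1 read 8.94, 8.95 and 8.81 with monuron, against 7.63, 7.71 and 7.71 with DMSO. Both groups were tight at this time, and the difference of 1.21 (2.32-fold) was the widest of the set. Acta2 read 11.34, 11.43 and 11.23 with monuron, against 10.94, 10.89 and 11.29 with DMSO. Its groups overlapped, with a difference of 0.30.

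The smaller differences at 24 h were set against a small spread. Tagln read 14.42, 14.43 and 14.37 with monuron, against 14.19, 14.22 and 14.23 with DMSO, a difference of 0.19. Tpm2 read 13.62, 13.65 and 13.65 with monuron, against 13.40, 13.45 and 13.49 with DMSO, also a difference of 0.19. Neither group of either gene reached into the other. Ankrd1 read 5.16, 4.61 and 4.23 with monuron, against 3.75, 4.17 and 4.05 with DMSO, and the difference of 0.67 was 0.51 with values below the median set to it. On the second probe sets of Ankrd1 and Tpm2 the groups overlapped at 24 h, with differences of 0.31 and 0.11. Myl9 read 3.44, 3.70 and 3.10 with monuron, against 2.65, 2.72 and 2.50 with DMSO. All 6 of these Myl9 values were below their array medians, and the difference of 0.79 became 0.00 with such values set to the median, so Myl9 had no measurable difference at 24 h. Differences of Tpm1 (0.09) and Actn1 (0.01) lay within the spread of the arrays. The 10 markers of smooth muscle and pericytes averaged 3.47 to 3.56 with monuron at 24 h, against 3.24 to 3.38 with DMSO, and the 10 fibroblast markers averaged 7.63 to 7.69 with monuron, against 7.50 to 7.57 with DMSO. Myh11 was below the array median throughout, and the part of these markers was not tested.

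Flna, which encodes the crosslinker filamin A, was the gene whose groups did not overlap at 2 times, in opposite directions. At 6 h it read 12.76, 12.80 and 12.85 with monuron, against 12.29, 12.47 and 12.55 with DMSO. At 24 h it read 12.35, 12.37 and 12.35 with monuron, against 12.72, 12.73 and 12.69 with DMSO. Monuron was higher by 0.37 at 6 h and lower, at -0.36, at 24 h. At 72 h the groups overlapped, with 12.08, 12.27 and 12.11 for monuron and 12.17, 12.08 and 12.37 for DMSO. Both directions occurred in a narrow range of levels.

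At 6 h, by the probe set that stands for each gene, Flna was also the only one of the 9 whose groups did not overlap, 1 higher and 0 lower, where 17.6% of all genes lay higher and 20.5% lower. Acta1 read 8.63, 8.71 and 8.52 with monuron, against 8.53, 8.30 and 8.07 with DMSO, so the groups overlapped by a narrow margin. The labels do not say whether the replicate numbers pair the arrays. Since same-numbered arrays deviated together to some degree at 6 h, the differences within same-numbered pairs are given too. These were 0.10, 0.40 and 0.45 for Acta1 and -0.14, -0.17 and -0.17 for Tpm2, whose mean difference was -0.16. Flna and Acta1 were higher in all 3 pairs, Tpm2 was lower in all 3, and the other 6 genes had both signs. Acta2 (-0.02), Tagln (0.02), Tpm1 (0.03), Actn1 (-0.04) and Ankrd1 (0.09) differed by less than 0.1 between groups. Myl9 was above the array median in both groups at 6 h, with 6.60, 5.91 and 5.91 for monuron and 7.13, 5.89 and 6.04 for DMSO. The median difference of the 9 genes was 0.02 at 6 h, 0.19 at 24 h and 0.97 at 72 h, against -0.02, 0.00 and 0.01 over all genes.

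**Figure D2:**
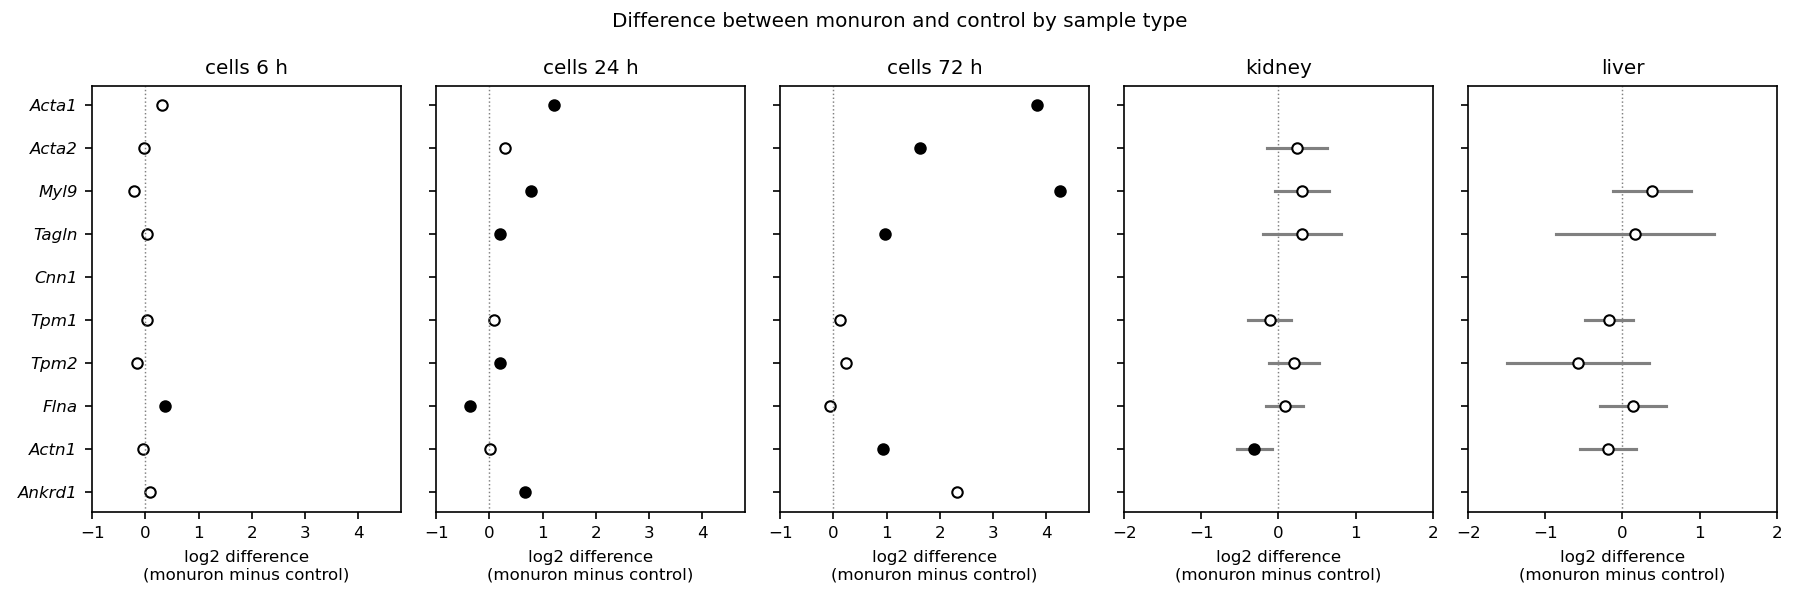
Log2 difference between monuron and its control for each gene, in cells at 6 h, 24 h and 72 h, in kidney and in liver. Filled points mark groups that do not overlap, and lines in kidney and liver are 95% intervals from limma. In the cells Acta1 goes up to 3.82 and Myl9 to 4.26 at 72 h, while in the organs the differences lie between -0.58 and 0.38. Genes with no point did not pass the filter.

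The course over time within each group differed between genes. The mean of Acta1 in monuron cells was 8.62, 8.90 and 8.94 at 6 h, 24 h and 72 h. In DMSO cells it was 8.30, 7.69 and 5.11 at the same times, so the Acta1 mean was lower at each later time in DMSO cells and not in monuron cells. Acta2 averaged 12.20, 11.33 and 12.49 in monuron cells at the 3 times. It averaged 12.22, 11.04 and 10.85 in DMSO cells. Thus in both groups Acta2 was lower at 24 h than at 6 h, and at 72 h it was near its 6 h level in monuron cells only. Myl9 averaged 6.14, 3.41 and 6.70 in monuron cells, and 6.35, 2.62 and 2.45 in DMSO cells, where it stayed below the array median from 24 h on. Ankrd1 averaged 4.23, 4.67 and 6.72 in monuron cells, and 4.14, 3.99 and 4.40 in DMSO cells. For Myl9 and Ankrd1 the monuron means were higher at 72 h than at 24 h. The 72 h DMSO mean of Ankrd1 was 3.19 without replicate 3. The probe sets that stand for Tpm1, Tpm2 and Flna kept to within 1 log2 unit over the means of all groups and times. This does not hold for the second probe set of Tpm2 and for some others of Tpm1. Arrays of different times were not tested against each other.

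The 7 probe sets of Tpm1 did not move together over time. The probe set with the highest mean, 1370287_a_at, which stands for the gene, and 1370288_a_at stayed near the top of the scale, with means between 14.13 and 14.55 in every group of cells. The probe set 1370513_at read 6.01, 8.06 and 7.81 with monuron and 5.43, 7.72 and 6.81 with DMSO at 6 h, 24 h and 72 h. The probe set 1395794_at took the same course. In contrast, 1371241_x_at was lower at the later times, with 11.30, 10.46 and 10.10 for monuron and 11.28, 10.43 and 10.07 for DMSO. At 72 h 1370513_at was higher with monuron by 1.00, 1395794_at by 0.50 and 1370288_a_at by 0.30, each without overlap. At 6 h 1395794_at was higher by 0.60, and at 24 h 1368724_a_at by 0.22, also without overlap. The 72 h values of 1370513_at were 7.34, 8.08 and 8.02 with monuron, against 6.46, 7.21 and 6.76 with DMSO. Tpm1 is known for its many splice forms, but which form each probe set reads is not given by the annotation used here.

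**Figure D3:**
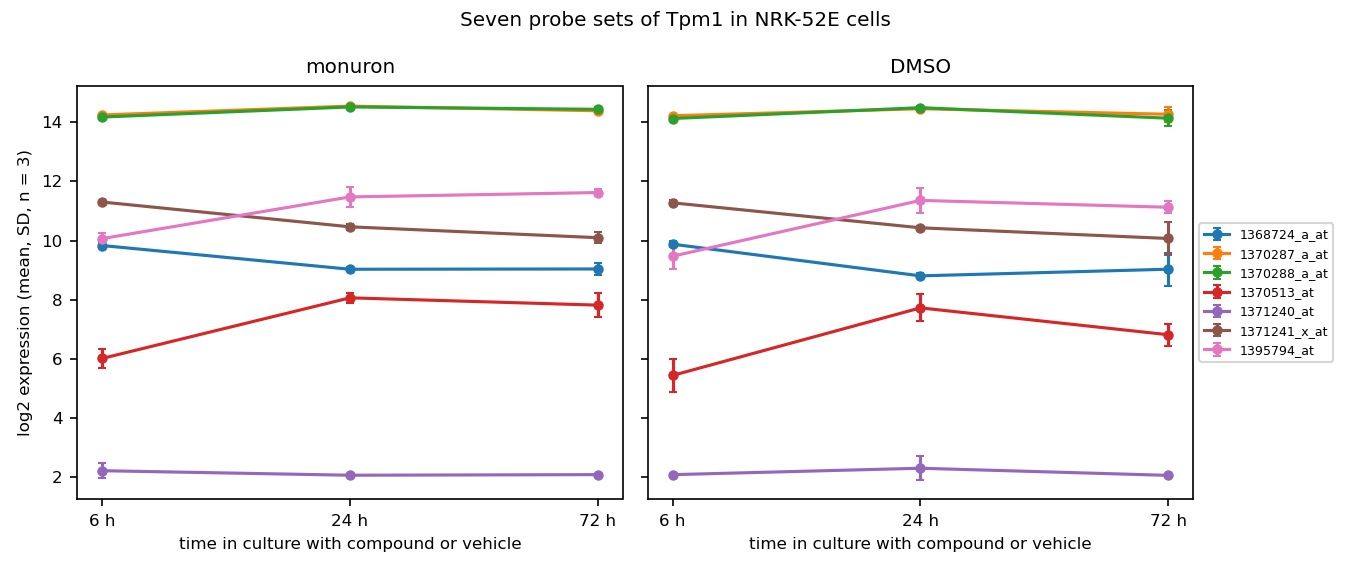
Mean log2 expression of the 7 Tpm1 probe sets in NRK-52E cells by time, with the SD of 3 arrays, for monuron on the left and DMSO on the right. 1370513_at and 1395794_at lie higher at 24 h and 72 h than at 6 h in both groups, while 1371241_x_at and 1368724_a_at lie lower, and 1371240_at stays at the background.

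Across the 18 cell arrays the 9 genes correlated with each other to varying degrees. Over the 36 pairs Pearson's r ran from -0.40 to 0.89, with a median of 0.47. The arrays share 6 groups, so these values describe the groups as much as the genes. The genes most like Acta2 over the 18 arrays were Kctd15 (r = 0.974), Sec11c (0.964), Gclm (0.963), which encodes a subunit of the enzyme that starts glutathione synthesis, and Cep76 (0.958). Most like Tagln were Fxyd5 (0.943), Mnd1 (0.902), Diaph3 (0.898) and Gmfg (0.898). Diaph3 encodes a formin, which builds unbranched actin filaments. Flna was most like Akap11 (0.918), Prr14l (0.903), Bmp2k (0.888) and Ptpn12 (0.877). Ankrd1 was most like Rab9b (0.952), LOC102549726 (0.945), Vegfa (0.945), which encodes the main growth factor for blood vessels, and Sfxn1 (0.941).

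Other genes of the actin system were tested in the cells with limma and Benjamini-Hochberg adjustment over all 9042 genes, at a threshold of 0.05. The 9 lists, which leave out the genes above, hold 226 genes, of which 198 were on the array and 162 were tested. At 72 h, 36 were higher and 58 lower with monuron. That is 58% of them, against 61.6% of all genes (30.7% higher and 30.9% lower), so the share called did not exceed the background. Their median difference was -0.08, against 0.01 over all genes. Calls in the lists ran both ways, except among the actins. Smooth muscle contractile genes had 6 of 16 higher and 4 lower (list median 0.11), tropomyosins and myosins 5 of 17 higher and 5 lower (-0.11), and focal adhesion genes 5 of 23 higher and 6 lower (0.17). Actin crosslinkers and bundlers had 3 of 19 higher and 9 lower (-0.27), and actin turnover genes 5 of 28 higher and 12 lower (-0.05). Of the 5 other actin and actin-related genes tested, the smooth muscle gamma-actin gene Actg2 among them, 0 were higher and 1 was lower (-0.03).

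Among the contractile genes at 72 h, the calponins Cnn2 (0.63, SE 0.13, adjusted p = 6.18e-04) and Cnn3 (0.47, SE 0.11, adjusted p = 0.0012) rose with monuron, as did Csrp1 (0.73, SE 0.15, adjusted p = 6.90e-04), a LIM protein that binds actin-crosslinking partners. Tpm4, a further tropomyosin, rose by 0.47 (SE 0.09, adjusted p = 2.95e-04), and the unconventional myosins Myo6 and Myo5a rose by 1.48 and 1.47. Myh10, the heavy chain of nonmuscle myosin IIB, fell by 1.07 (SE 0.15, adjusted p = 2.46e-05). Sorbs3, which encodes the adhesion protein vinexin, and Ppp1r14a, whose product inhibits myosin phosphatase, each fell by 0.65. Each SE here and below comes from 1 spread shared by the 6 cell groups. The groups' own SDs could differ at 72 h. They were 0.05 with monuron and 0.36 with DMSO for Cnn2, and 0.45 and 0.21 for Myh10. Where they differ, the SEs and adjusted p values may understate the uncertainty at 72 h.

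Among crosslinkers and turnover genes at 72 h, the second nonmuscle alpha-actinin, Actn4, rose by 0.45 (SE 0.10, adjusted p = 0.0015), and Eps8, which caps and bundles filaments, rose by 1.99 (SE 0.32, adjusted p = 7.20e-05). Marcks, which links actin to the membrane, fell by 2.02 (SE 0.20, adjusted p = 7.25e-07). Ezr, which encodes ezrin of microvilli, fell by 0.77, and the spectrin gene Sptan1 fell by 0.49. Enah, a filament elongation factor, rose by 1.53 (SE 0.24, adjusted p = 4.50e-05). Gsn, which encodes the severing protein gelsolin, fell by 1.01 (SE 0.11, adjusted p = 1.44e-06), and Arpc5 and Arpc1a of the complex that branches filaments fell by 0.62 and 0.67. At focal adhesions, Fhl3 (1.44), Pdlim5 (1.14) and Fhl2 (0.73) rose, while Ajuba fell by 0.93 and Pxn, which encodes paxillin, fell by 0.72.

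Genes of 3 regulatory systems known to act on contractile genes were also mixed at 72 h. Of 18 tested genes of SRF, its coactivators and regulators, 3 rose and 6 fell (list median -0.07). Srf itself rose by 0.91 (SE 0.12, adjusted p = 8.42e-06), with a mean of 10.92 ± 0.15 in monuron cells and 10.00 ± 0.30 in DMSO cells (SD, n = 3 each). The small GTPase genes Rhob and Rhoc fell by 1.16 and 0.94. Of 18 genes of YAP and TAZ and their targets, 5 rose and 6 fell (0.03). Wwtr1, which encodes TAZ, rose by 1.77 (SE 0.23, adjusted p = 1.01e-05) and the target Ccn1 rose by 0.71, while Myof and Rbms3 fell by 1.03 and 2.33. Of 19 genes of the TGF-beta pathway, 5 rose and 9 fell (-0.19). The receptor gene Tgfbr1 rose by 0.87 and Smad4 rose by 0.66. Id3 and Id1, targets of the BMP branch, fell by 1.68 and 0.99, and Fst, which encodes the activin-binding follistatin, fell by 1.56.

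**Figure D4:**
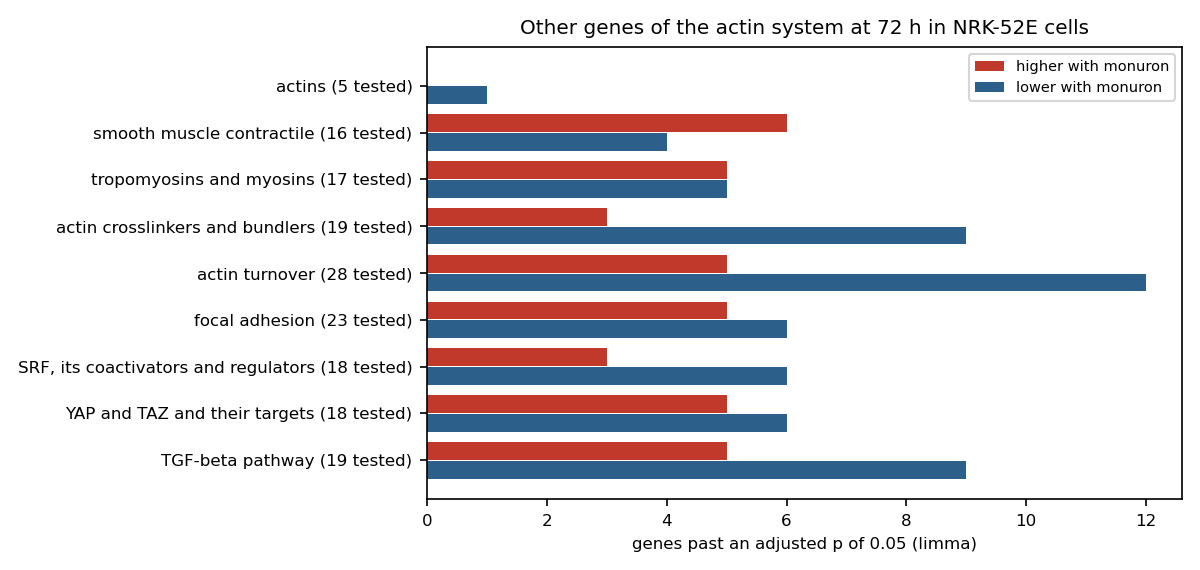
Number of genes of each actin-system list, without the 10 genes above, that were higher (red) or lower (blue) with monuron than with DMSO at 72 h in NRK-52E cells, past an adjusted p of 0.05 by limma. Every list but the actins holds calls in both directions, with 6 higher and 4 lower among smooth muscle contractile genes and 3 higher and 9 lower among crosslinkers and bundlers.

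At 24 h, 5 of the 162 genes were higher and 13 lower with monuron, 11.1% against 13.6% of all genes (6.43% higher and 7.14% lower). Des, which encodes the muscle intermediate filament protein desmin, rose by 1.38 (SE 0.24, adjusted p = 0.0021), with a mean of 5.23 in monuron cells and 3.85 in DMSO cells, the second below the array median. Eps8 rose by 1.50 (SE 0.32, adjusted p = 0.0075). Actr1a, Actl6a, Arpc5, Ajuba and Smad2 fell, by 0.36 to 0.57. The counts moved to 3 higher without monuron 24 h replicate 2 or DMSO 24 h replicates 1 or 2, and to 7 or 8 lower without monuron 24 h replicates 2 or 3 or DMSO 24 h replicates 1 or 2. In a fit without the 72 h arrays they were 19 higher and 32 lower.

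At 6 h, 3 of the 162 genes were higher and 5 lower, 4.94% against 6.31% of all genes (3.3% higher and 3.02% lower). Ccn2, a target of YAP and TAZ and of TGF-beta, rose by 0.27 (SE 0.05, adjusted p = 0.0049), and Bambi, which encodes a decoy receptor of the TGF-beta family, fell by 0.51 (SE 0.09, adjusted p = 0.0047). Arrays with the same replicate number deviated together at 6 h, and with the number as a replicate block 10 genes were higher and 8 lower. Without monuron 6 h replicates 2 or 3 or DMSO 6 h replicates 1 or 2, 1 gene was higher and 1 to 3 were lower. Without DMSO 6 h replicate 3, 5 were higher, and in a fit without the 72 h arrays 21 were higher and 19 lower.

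In kidney, 7 of the 10 genes passed the filter, and 0 of the 7 were called by limma, where 10.2% of all 9542 genes tested were. Acta1, Cnn1 and Ankrd1 did not lie above the array median on at least 4 of the 8 arrays. Of the 7, 1 had an unadjusted p under 0.05. That gene was Actn1, which read 8.95, 9.09, 9.08 and 8.78 in monuron kidneys, against 9.28, 9.11, 9.45 and 9.31 in control kidneys. All 4 monuron values lay below all 4 control values, as in 13.6% of all genes, and the difference was -0.31 (SE 0.10, adjusted p = 0.0738). On the second Actn1 probe set the kidney groups overlapped, with a difference of -0.43. The sign of Actn1 was opposite to that in the cells at 72 h.

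The other genes, apart from Tpm1, had positive differences in kidney, within their spread. Myl9 read 9.43, 9.42, 9.25 and 8.77 in monuron kidneys, against 9.19, 8.85, 8.80 and 8.80 in control kidneys. The groups overlapped, and the difference of 0.31 had a 95% interval of -0.04 to 0.66 (limma adjusted p = 0.2159). Without monuron kidney replicate 4 it was called (adjusted p = 0.0412), and it was the only call among the 7 in any setting tried. Tagln read 8.92, 9.75, 8.96 and 8.64 in monuron kidneys, against 9.08, 8.75, 8.80 and 8.42 in control kidneys, and its difference of 0.31 had an interval of -0.20 to 0.81. Acta2, close to the array median, differed by 0.24 (interval -0.15 to 0.62). Tpm1 (-0.11), Tpm2 (0.20) and Flna (0.08) had intervals that held 0. The 10 smooth muscle and pericyte markers averaged 3.82 to 3.94 in monuron kidneys, against 3.89 to 4.33 in control kidneys, with Myh11 at -0.72 (limma adjusted p = 0.1615), and 5 of the 10 lay above the median on none of the arrays. The part of these markers was not tested.

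Of the 161 other actin-system genes tested in kidney, 5 were higher and 8 lower with monuron, 8.07% against 10.2% of all genes (3.87% higher and 6.34% lower). Ccn1 fell by 1.60 (SE 0.19, adjusted p = 0.0020), Ccn2 by 0.45 (SE 0.09, adjusted p = 0.0145) and Id1 by 1.46 (SE 0.25, adjusted p = 0.0095). Ccn1 was thus lower in monuron kidneys and higher in monuron cells at 72 h. The same held for Srf, which fell in kidney by 0.44 (SE 0.10, adjusted p = 0.0264). Its kidney call was lost in 7 of the 14 alternatives tried. The count of higher genes was 3 without monuron kidney replicates 1 or 2, 2 without control kidney replicate 2, and 0 without monuron or control kidney replicate 3, where 3 were lower.

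In liver, 6 of the 10 genes passed the filter, all but Acta1, Acta2, Cnn1 and Ankrd1. By limma 0 of the 6 were called and 0 had an unadjusted p under 0.05, where 3.12% of all 9361 genes were called. Myl9 read 8.66, 8.92, 9.04 and 8.27 in monuron livers, against 8.61, 8.15, 7.88 and 8.72 in control livers. Its difference of 0.38 had a 95% interval of -0.12 to 0.89. Tpm2 read 5.32, 4.34, 5.17 and 3.78 in monuron livers, against 6.08, 4.63, 4.79 and 5.44 in control livers. The arrays were spread over more than 2 log2 units, and the difference of -0.58 had an interval of -1.50 to 0.35. Tagln differed by 0.16, with an interval of -0.87 to 1.19, and turned to -0.12 without monuron liver replicate 1 and to -0.02 without control liver replicate 3. Flna differed by 0.13 and stood at 0.00 without control liver replicate 2. Tpm1 (-0.18) and Actn1 (-0.19) had intervals that held 0. The 10 markers of smooth muscle and pericytes averaged 3.43 to 3.63 in monuron livers, against 3.49 to 3.74 in control livers, and the 6 of hepatic stellate cells averaged 5.56 to 6.41, against 5.19 to 5.56. Their part was not tested.

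Of 153 other actin-system genes tested in liver, 2 were higher and 0 lower, 1.31% against 3.12% of all genes (1.1% higher and 2.02% lower). Csrp1 rose by 0.86 (SE 0.11, adjusted p = 0.0087), as it did in the cells at 72 h. With a replicate block in liver, where the numbers did not pair the arrays, its adjusted p was 0.0659. The other gene, Actr2, of the complex that branches filaments, rose by 0.38 (SE 0.08, adjusted p = 0.0463). Its call was lost without any 1 of the 8 liver arrays other than control replicate 3, and its adjusted p reached 0.1859 over the alternatives tried. Without that control array 6 genes were higher and 6 lower, and without monuron liver replicate 4, 5 were higher and 2 lower.

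The joint fit of both organs tested whether the monuron difference itself differed between kidney and liver. For the 7 genes, 0 differences between organs were called, and 2.68% of all 10114 genes were. The lowest adjusted p among them was 0.4352, for Tpm2, whose difference was 0.78 higher in kidney (95% interval -0.20 to 1.76). These intervals are wide for Tagln and Tpm2, and the data do not show that the organs were alike.

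**Figure D5:**
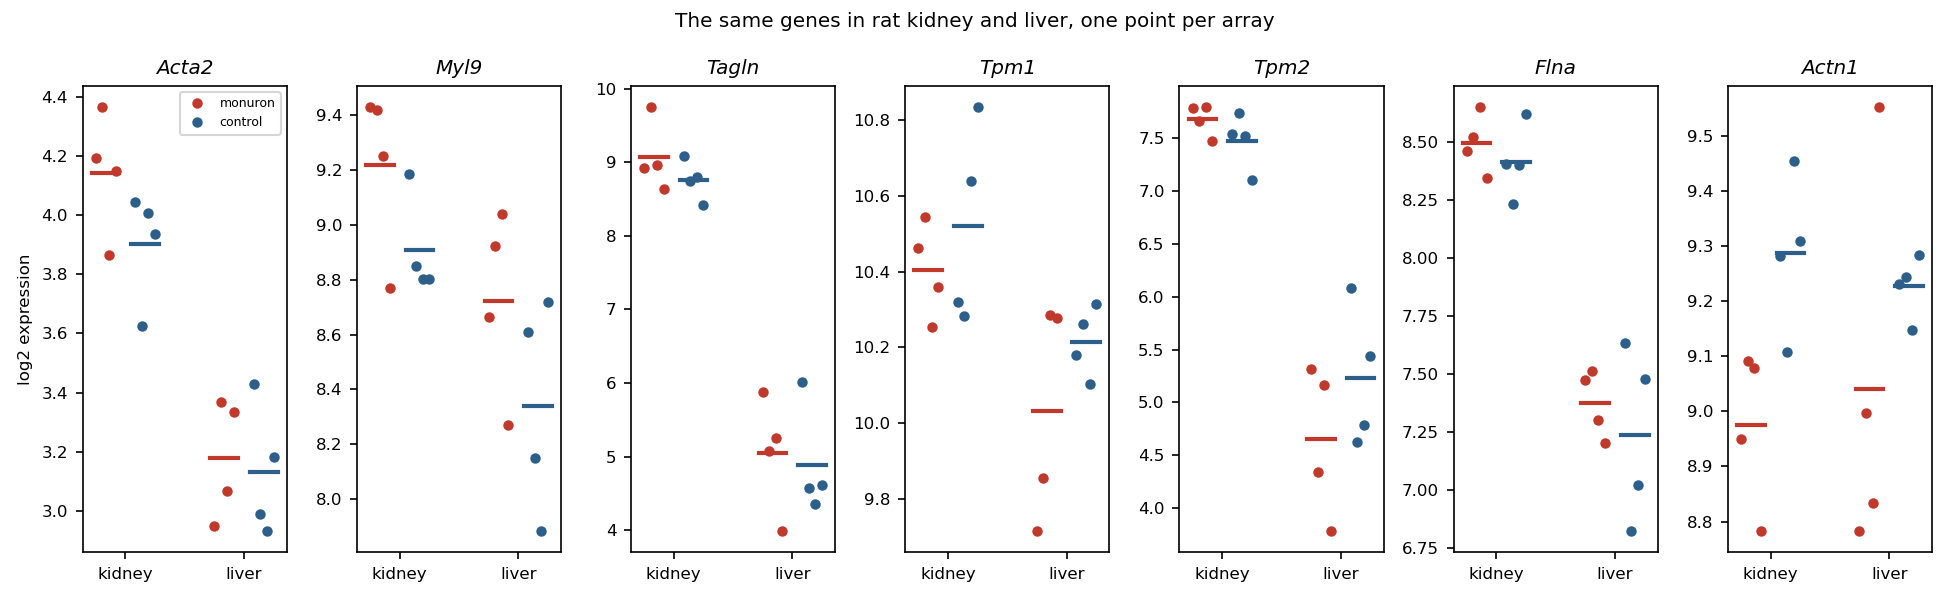
Log2 expression of the 7 genes in kidney and liver, with 1 point per array, monuron left of control, and bars at the group means (n = 4 each). Vertical scales differ between genes. In kidney the monuron values of Actn1, from 8.78 to 9.09, all lie below the control values, which start at 9.11, and for the other genes the groups overlap.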

How the data were processed

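For 34 arrays the authors deposited log2 values, 1 per probe set, made with GCRMA per the submitters' processing notes. This method subtracts background, equalises the distributions of arrays and combines the probes of a set. Its version is not given in the sources used here. Arrays have no read depth, and their number limits the precision. Of 31099 probe sets, 57 controls were left out, 20826 carried 1 gene symbol in the platform annotation, 436 carried several and 9780 carried none. Of those with 1 symbol, 20764 matched a RefSeq gene ID, and 0 symbols changed.

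Where a gene had several probe sets, the one highest on average in a fit stood for it. A gene was tested if it lay above the array median on at least 3 arrays in the cells and 4 in an organ. Tests then covered 9042 cell genes, 9542 kidney genes, 9361 liver genes and 10114 genes in the joint organ fit. They were run in limma 3.58.1 under R 4.3.3 (lmFit, eBayes with a trend, two-sided, Benjamini-Hochberg over all genes of a fit, threshold 0.05). The 18 cell arrays were fitted as 6 groups. Kidney and liver were fitted alone, and a joint fit of 16 arrays gave the difference between organs. The SE comes from limma and the SD from a group's arrays. Alternatives were centring on array medians, the mean of a gene's probe sets, low values set to the array median, no filter, no trend, a replicate block, leaving out single arrays, and leaving out both 72 h arrays numbered 3 (for the lists, added after seeing the data).

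The 10 genes, the pathway lists and the marker lists were chosen with earlier results of these data known. Pathway genes are named from the 3 with the smallest adjusted p per list and direction, mostly those whose call held in all alternatives tried. Genes most like Acta2, Tagln, Flna and Ankrd1 are the 4 with the highest r over the cell arrays.

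Same-numbered arrays of monuron and DMSO deviated together at 6 h (r = 0.491, 0.198 and 0.290 for replicates 1, 2 and 3, over genes). At 72 h r was 0.205, 0.167 and 0.317. Between unlike numbers it ran from -0.430 to 0.301 at 6 h and from -0.328 to 0.275 at 72 h. At each of these times 4 of the 6 arrays were most like their own number. The labels state no pairing. As an assumption, the numbers were taken to pair the arrays at 6 h and 72 h, for the differences within pairs only. The main fits hold no term for the number, so their SEs and adjusted p values are unpaired at all times. The replicate block was run only as an alternative. At 24 h and in the organs the numbers were not taken to pair the arrays. There r ran down to -0.116 at 24 h, -0.216 in kidney and -0.165 in liver. The script was tested on simulated data with 9042 genes for the 72 h comparison, where 51.5%, 75.8% and 98.5% of genes changed by 0.5, 1 and 2 on the log2 scale were recovered. In kidney these shares were 30.9%, 81.8% and 98.5%, and in liver 35.3%, 75.8% and 89.4%, so small differences in the organs were often missed. Only 68, 66 and 66 genes were changed by these sizes, and all groups shared the spread of a gene. At 72 h 61.6% of genes were called and group SDs could differ, so the recovery may not hold there.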

Additional observations from a re-analysis of the deposited data

Results flagged for a closer look

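Among 26 groups of 4 organ arrays examined, 1 per gene, organ and treatment, 2 held an array that stood apart from the other 3, and chance alone gives about 1 in 20. Myl9 read 9.19 in control kidney replicate 1, while the other control kidneys read 8.80 to 8.85. Tagln read 6.02 in control liver replicate 1, while the other control livers read 4.36 to 4.61. Both arrays also had the highest log2 difference between the 3′ and the 5′ probe sets of Gapdh in their organ. It was 0.31 in control kidney replicate 1, against 0.0059 to 0.15 in the other control kidneys, and 0.58 in control liver replicate 1, against 0.12 to 0.37 in the other control livers. Its part was not tested.

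Flna lay higher with monuron than with DMSO on all cell arrays at 6 h (0.37) and lower on all at 24 h (-0.36), and the difference between the times was not tested here. By the probe set that stands for it, Actn1 lay higher with monuron on all cell arrays at 72 h (0.94) and lower on all kidney arrays (-0.31). In kidney it was not called (limma adjusted p = 0.0738), and its second probe set overlapped there. The difference between cells and kidney was not tested.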

How the results depend on the processing

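For the 9 genes measured in the cells, the 72 h count that lay higher without overlap ran from 5 to 7 when 1 array was left out, where 29.9% to 38.1% of all genes did so, and the median difference ran from 0.58 without DMSO replicate 1 to 1.37 without DMSO replicate 3. At 24 h the count ran from 5 to 7 (26.1% to 30.3% of all genes). At 6 h, leaving out 1 array gave 1 to 3 higher (19.8% to 24.3%) and 0 to 1 lower (22.1% to 31.7%). Leaving out 1 array gave 0 to 1 calls among the genes in kidney, and no alternative gave a call in liver or between the organs. In the cells, 9 of 27 differences changed sign in some alternative, all of them of genes whose groups overlapped and none over 0.21 in size with all arrays. Signs also turned for Tagln in liver (-0.12 to 0.54 over single arrays left out, -0.12 without monuron replicate 1 and -0.02 without control replicate 3), for Flna in liver (-0.0046 to 0.27, -0.0046 without control replicate 2), and, with the mean of all probe sets of a gene, for Actg1 (0.068) and Cfl2 (-0.20) in the cells at 72 h. Those values were not called.

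Counts of other actin-system genes moved as follows, and the cause was not tested. With arrays centred on their medians, 8 were lower at 6 h, 3 higher at 24 h and 1 higher in liver. With the mean of all probe sets, 5 were lower in kidney. With no filter on dim probe sets, 3 were higher at 24 h, 3 higher and 5 lower in kidney, and 1 higher in liver. With no trend, 1 was higher in liver. With the replicate block, 10 were higher and 8 lower at 6 h, 24 lower at 24 h, 2 higher and 3 lower in kidney, and 0 higher in liver. The block moved no 72 h count by over 1.5 times. Without the 6 arrays of 72 h, 21 were higher and 19 lower at 6 h, and 19 higher and 32 lower at 24 h. Leaving out 1 array gave 1 to 5 higher and 1 to 7 lower at 6 h, 3 to 5 higher and 7 to 11 lower at 24 h, 0 to 4 higher and 3 to 10 lower in kidney, and 1 to 6 higher and 0 to 6 lower in liver. At 72 h all alternatives gave 31 to 46 higher and 48 to 60 lower. Without both 72 h arrays numbered 3, an alternative chosen after seeing the data, these were 41 and 56. Genes near the array median have only a bound in one group.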
